A study of Homo sapiens with 3 samples.

Results

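Ion channel genes were followed through H3K9me3 regions called in Jurkat, a cell line of T cell leukaemia origin. A region belonged to them when its list of annotated genes held a symbol of the KCN potassium channel families, the calcium channel subunits CACNA, CACNB and CACNG, the sodium channel subunits SCN, the ryanodine receptors RYR, the TRPA, TRPC, TRPM and TRPV channels or the HCN channels. This name rule took 310 of 54116 regions, 148 of 26938 in the control library and 162 of 27178 in the CXCL12 library, and they carried 71 of 7664 gene symbols. The rule is wider than voltage-gated and calcium release channels, since inward rectifier, K2P leak and many TRP channels are not opened mainly by voltage. It also takes TRPC4AP, which encodes an associated protein and no channel, and KCNQ1OT1, a non-coding transcript within KCNQ1.

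All cells had been kept without serum for 90 min, and those of 1 group then received the chemokine CXCL12 (also called SDF) at 100 ng/ml for 15 min while the others were left untreated. Each group holds 1 immunoprecipitated library, so no p-value was computed, and a difference between the libraries cannot be told apart from variation between separate preparations. A genomic input library was part of the study and was not analysed here. Over all regions the control library covered 144381 kb and the CXCL12 library 154396 kb, with median mean signals of 5.06 and 5.10. The number of reads behind these values is unknown.

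H3K9me3, trimethylation of histone H3 at lysine 9, is the mark of heterochromatin and is read by the HP1 proteins. Ion channels are built from a pore and, in many families, from accessory subunits that set its gating and its transport to the membrane. Voltage-gated channels serve electrical signalling in nerve, muscle and heart, and most of their genes are expressed in a tissue-restricted way. T cells are not excitable, and they use a small set of potassium, TRP and calcium release channels to shape the calcium signal that follows receptor engagement.

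The annotated start of a channel gene lay inside an H3K9me3 region at 8 genes. In 4 of them RefSeq lists a single promoter entry. These windows are shown because regions that covered or stopped short of the annotated starts of these genes are described further on. Each is a RefSeq window of 300 bases around the start in GRCh38.p14, most of it before the start, 5′ to 3′ on the strand of the gene, with every CG dinucleotide in capitals. The CACNA2D3 window is chr3:54122302-54122601 (plus strand), KCNC2 is chr12:75209790-75210089 (minus strand), KCNG2 is chr18:79797688-79797987 (plus strand) and KCNK18 is chr10:117197239-117197538 (plus strand).
CACNA2D3: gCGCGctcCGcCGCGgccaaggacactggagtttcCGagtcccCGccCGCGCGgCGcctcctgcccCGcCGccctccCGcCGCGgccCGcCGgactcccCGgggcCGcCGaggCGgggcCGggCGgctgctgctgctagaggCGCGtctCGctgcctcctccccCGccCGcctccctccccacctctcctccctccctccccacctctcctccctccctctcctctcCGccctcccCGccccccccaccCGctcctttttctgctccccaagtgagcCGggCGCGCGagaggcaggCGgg
KCNC2: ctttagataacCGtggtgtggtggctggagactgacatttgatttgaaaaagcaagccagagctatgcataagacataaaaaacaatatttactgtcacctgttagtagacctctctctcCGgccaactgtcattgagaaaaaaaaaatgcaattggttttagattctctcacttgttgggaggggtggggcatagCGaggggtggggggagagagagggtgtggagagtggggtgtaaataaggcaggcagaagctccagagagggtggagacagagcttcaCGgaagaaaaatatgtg
KCNG2: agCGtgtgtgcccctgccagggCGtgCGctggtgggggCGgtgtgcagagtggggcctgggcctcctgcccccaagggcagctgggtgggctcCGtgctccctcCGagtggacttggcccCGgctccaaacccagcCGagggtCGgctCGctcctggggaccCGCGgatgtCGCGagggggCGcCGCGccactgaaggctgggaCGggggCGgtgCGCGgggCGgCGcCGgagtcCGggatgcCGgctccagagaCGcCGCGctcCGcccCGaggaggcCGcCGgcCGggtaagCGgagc
KCNK18: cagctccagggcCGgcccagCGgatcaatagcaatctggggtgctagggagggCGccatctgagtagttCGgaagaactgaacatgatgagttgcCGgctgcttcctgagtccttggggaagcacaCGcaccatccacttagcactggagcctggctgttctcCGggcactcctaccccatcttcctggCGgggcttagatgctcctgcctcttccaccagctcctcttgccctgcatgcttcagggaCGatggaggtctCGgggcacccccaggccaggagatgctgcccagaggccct
The letters searched were CG, which reads the same on both strands. CACNA2D3 holds 37 of them at 79.0% G and C, KCNG2 holds 35 at 77.3%, KCNK18 holds 10 at 62.0% and KCNC2 holds 4 at 46.3%. The median over 35116 RefSeq promoter windows of the same length was 14, and 96.0% of those windows held at least 1 CG. These 4 RefSeq windows therefore range from rich to poor in CG. The RefSeq start can differ from the hg19 start used in the deposited annotation, and positions were not converted between the builds. A window can therefore lie outside the region that covered the annotated start. KCNK10, which has more than 1 RefSeq entry, and SCN3B, CACNG1 and CACNG5 are named only.

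More of the channel genes carried an H3K9me3 region than protein-coding genes in general. Of 165 protein-coding genes that match the name rule in RefSeq, 70 had a region in, upstream or downstream of the gene in at least 1 library (42.4%, exact 95% interval 34.8 to 50.3%), against 6013 of 20052 protein-coding genes (30.0%, 29.4 to 30.6%). With regions inside the gene body alone the shares were 36.4% and 19.3%, and with a region listed in both libraries 37.0% and 25.9%. Long genes offer more room for a region, and the part of gene length in these shares was not tested. The intervals cover the spread over genes and not the variation between cultures.

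Channel regions lay deep within gene bodies. In control 124 of 148 regions (83.8%) and after CXCL12 142 of 162 (87.7%) were annotated inside a channel gene, against 74.4% and 74.7% of all gene-carrying regions inside a gene. A further 9 regions in each library lay upstream, and 15 in control and 11 after CXCL12 lay downstream. Inside genes the summit was a median 95.4 kb from the annotated start in control and 103 kb after CXCL12, against 65.0 and 66.3 kb over all gene-carrying regions. A promoter was annotated at 14 channel regions in control (9.46%) and 13 after CXCL12 (8.02%), compared with 18.3% and 18.0% of gene-carrying regions. CpG islands went the other way, with 16 channel regions in control (10.8%) and 17 after CXCL12 (10.5%), against 7.19% and 6.86%. The part of gene length in these positions, distances and shares was not tested either.

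Regions that overlapped by at least 1 bp, within or between the libraries, were joined into 176 channel loci. A locus was counted when any of its regions named a channel gene, and its values include its other regions too. Most were found with and without CXCL12: 121 were called in both libraries (68.75%, interval 61.3 to 75.5%), compared with 73.3% of all 29404 loci and 76.0% of the 13235 loci that carry any gene. Control alone held 18 (10.2%, 6.17 to 15.7%), where the share over all loci was 12.2%. CXCL12 alone held 37 (21.0%, 15.3 to 27.8%), where it was 14.6%. The control-only share thus lay near that of all loci, and the interval of the CXCL12-only share began above it, although loci of the same gene are not independent.

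The loci were spread unevenly over genes. Of the 71 symbols, 31 had 1 locus, 18 had 2 and 12 had at least 5. CACNA2D3, an auxiliary alpha2delta subunit of calcium channels, had 9 loci, of which 5 were shared, 1 was control only and 3 were CXCL12 only. KCNQ3, a pore subunit of the neuronal M-current, also had 9 (6 shared, 3 CXCL12 only). The L-type calcium channel gene CACNA1C followed with 8 (7 shared, 1 control only), then the G protein-gated potassium channel gene KCNJ6 with 8 (6 shared, 1 in each single library). KCNQ1, which carries a slow repolarizing current of the heart, had 7 (6 shared, 1 CXCL12 only), and the cardiac ryanodine receptor gene RYR2 had 7 (3 shared, 4 CXCL12 only). By chromosome, 25 loci (14.2%) lay on chromosome 3, which holds 7.50% of all loci. On chromosome 21 the 3 genes KCNE1, KCNJ6 and TRPM2 gave 16 loci (9.09%, against 1.77% of all loci).

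**Figure D1:**
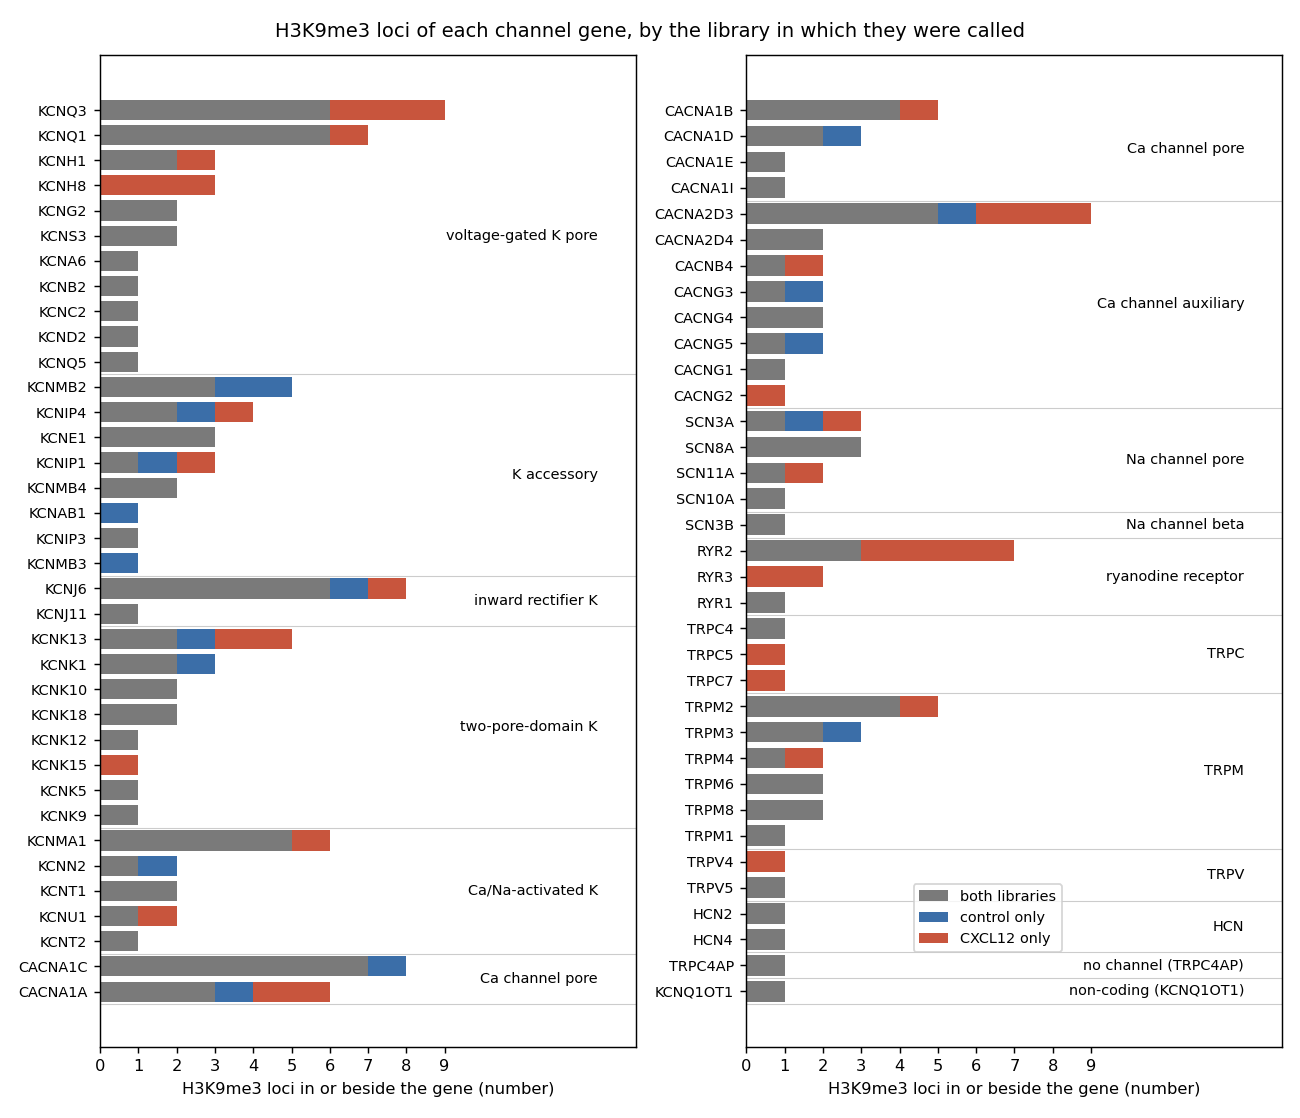
Number of H3K9me3 loci in or beside each of the 71 listed symbols, grouped by channel class. Bar segments are loci called in both libraries (grey), in control only (blue) and after CXCL12 only (red); CACNA2D3 and KCNQ3 had the most, with 9 each, and KCNH8, RYR3, TRPC5, TRPC7, TRPV4, CACNG2 and KCNK15 had CXCL12-only loci alone.

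Pore subunits of voltage-gated potassium channels had a region at 11 of 40 genes, and these gave 31 loci, 23 of them shared and 8 called after CXCL12 only. At the shared loci the log2 ratio of mean signal, CXCL12 over control, had a median of 0.12 (range −1.15 to 0.51), with 15 above 0 and 8 below. The median over all shared loci was 0.04, and 57.0% of them were above 0. The strongest channel locus lay in KCNG2, which encodes a silent subunit that modifies other voltage-gated channels. At chr18:77647000-77666999 (hg19) it averaged 20.8 per bin in control and 22.4 after CXCL12, with highest bins of 107 and 94. This locus also carries PQLC1, so that its signal belongs to neither gene alone. A further locus over the KCNG2 start had 7.58 and 7.66.

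KCNQ1 carried the longest channel locus. It spans 51.6 kb at chr11:2640600-2692199, where the antisense transcript KCNQ1OT1 of the imprinted domain is also annotated, and it averaged 9.90 per bin in control and 9.57 after CXCL12. A 31.2 kb locus nearer the end of the gene, at chr11:2823000-2854199, averaged 13.5 and 17.1 per bin, and its highest bins were 65 and 68. The region called there measured 31200 bp without and 23200 bp with CXCL12, and its log2 ratio was 0.34. Of the 6 shared KCNQ1 loci, 5 had the higher mean signal after CXCL12, the locus at KCNQ1OT1 being the exception. At those 5 the called length was shorter or equal after CXCL12. Their log2 ratios of summed signal ran from −0.21 to 0.25, and those of the highest bin from −0.44 to 0.43. The direction at KCNQ1 thus depends on the measure. The seventh locus, called after CXCL12 only, had 2.37, the lowest mean signal of all channel regions in that library.

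KCNQ3 on chromosome 8 had the largest ratio of the channel loci, 5.00 in control and 7.11 after CXCL12 at chr8:133317400-133324599 (log2 ratio 0.51). KCNH1, of the ether-à-go-go family, had 3.98 and 5.53 at chr1:211131600-211137799 (0.47) and 4.60 and 6.17 at a second shared locus. KCNH8, of the same family, had 3 loci called after CXCL12 only, each of at most 2000 bp, with mean signals of 3.33 to 3.87. The other genes of this class carried 1 or 2 shared loci each.

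The accessory subunits of potassium channels had a region at 8 of 16 genes and 20 loci, 12 shared, 6 control only and 2 CXCL12 only. Their shared loci had a median log2 ratio of 0.05, with 10 above 0 and 2 below, where 57.0% of all shared loci were above 0. KCNMB2, a beta subunit of the large-conductance calcium-activated channel, had the strongest of them, 8.09 in control and 8.12 after CXCL12 at chr3:178410600-178417999. Another of its shared loci, at chr3:178398800-178401599, had 3.11 and 4.29 over 2400 bp in each library (0.46), and 2 more were called in control only. KCNE1, which encodes the beta subunit of the KCNQ1 channel, had 3 shared loci with mean signals of 4.88 to 7.32 in control and 5.19 to 7.37 after CXCL12. KCNE1 has a near-identical copy, KCNE1B, in newer assemblies, so the assignment of reads to it is uncertain. Copies of the other genes were not examined.

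Inward rectifier genes were the least covered of the potassium channels, with a region at 2 of 16. At KCNJ11, the pore of the ATP-sensitive channel, the locus lay downstream of the gene and inside DKFZp686O24166, at chr11:17387200-17398799, with 14.5 in control and 16.5 after CXCL12. KCNJ6 held the other 8 loci of the class. Its 6 shared loci had mean signals of 4.19 to 7.90 in control and 4.10 to 7.10 after CXCL12. Over the 7 shared loci of both genes the median log2 ratio was −0.14, with 3 above 0 and 4 below.

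K2P leak channels, which set the resting potential, had a region at 8 of 15 genes. Their 16 loci comprised 11 shared, 2 control-only and 3 CXCL12-only loci, with a median log2 ratio of 0.05. KCNK9, an imprinted gene, carried a 31.0 kb locus at chr8:140679600-140710599 with 8.74 in control and 8.30 after CXCL12. KCNK13 had 5 loci, 2 of them shared, 1 control only and 2 CXCL12 only.

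Calcium- and sodium-activated potassium channel genes had a region at 5 of 8 genes and 13 loci (10 shared, 1 control only, 2 CXCL12 only), with a median of −0.09. KCNT2, a sodium-activated channel, had 12.9 in control and 11.1 after CXCL12 at chr1:196503200-196507999. In KCNMA1, the gene of the large-conductance calcium-activated channel, called length differed between the libraries at a shared locus. At chr10:79125400-79135999 the control region spanned 3200 bp and the CXCL12 region 10600 bp, with mean signals of 3.17 and 4.33 and highest bins of 8 and 11. At another KCNMA1 locus, chr10:79060600-79066399, the highest bin was 15 in control and 7 after CXCL12, and the mean signals were 4.67 and 3.81.

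Pore subunits of calcium channels had a region at 6 of 10 genes. Their 24 loci were 18 shared, 3 control only and 3 CXCL12 only, with a median log2 ratio of −0.04 (8 above 0, 10 below). The strongest lay in the T-type channel gene CACNA1I, 16.0 in control and 13.3 after CXCL12 at chr22:40062600-40072999. CACNA1B, the N-type channel of presynaptic terminals, carried long loci of 30.2 kb (chr9:140819400-140849599, 7.67 and 7.84) and 19.0 kb (chr9:140964200-140983199, 9.61 and 10.1), and a locus near its far end that was called after CXCL12 only. CACNA1C had shared loci from 3.05 to 11.2 in control and from 3.78 to 10.2 after CXCL12, and a 13.4 kb locus called in control only (4.45). CACNA1A, the P/Q-type channel gene, had 6 loci, of which 3 were shared, and at all 3 the mean signal was lower after CXCL12. By summed signal all 3 were higher after CXCL12 (log2 ratios of 0.07 to 0.27), the called length being greater each time, and the highest bin was lower at none.

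**Figure D2:**
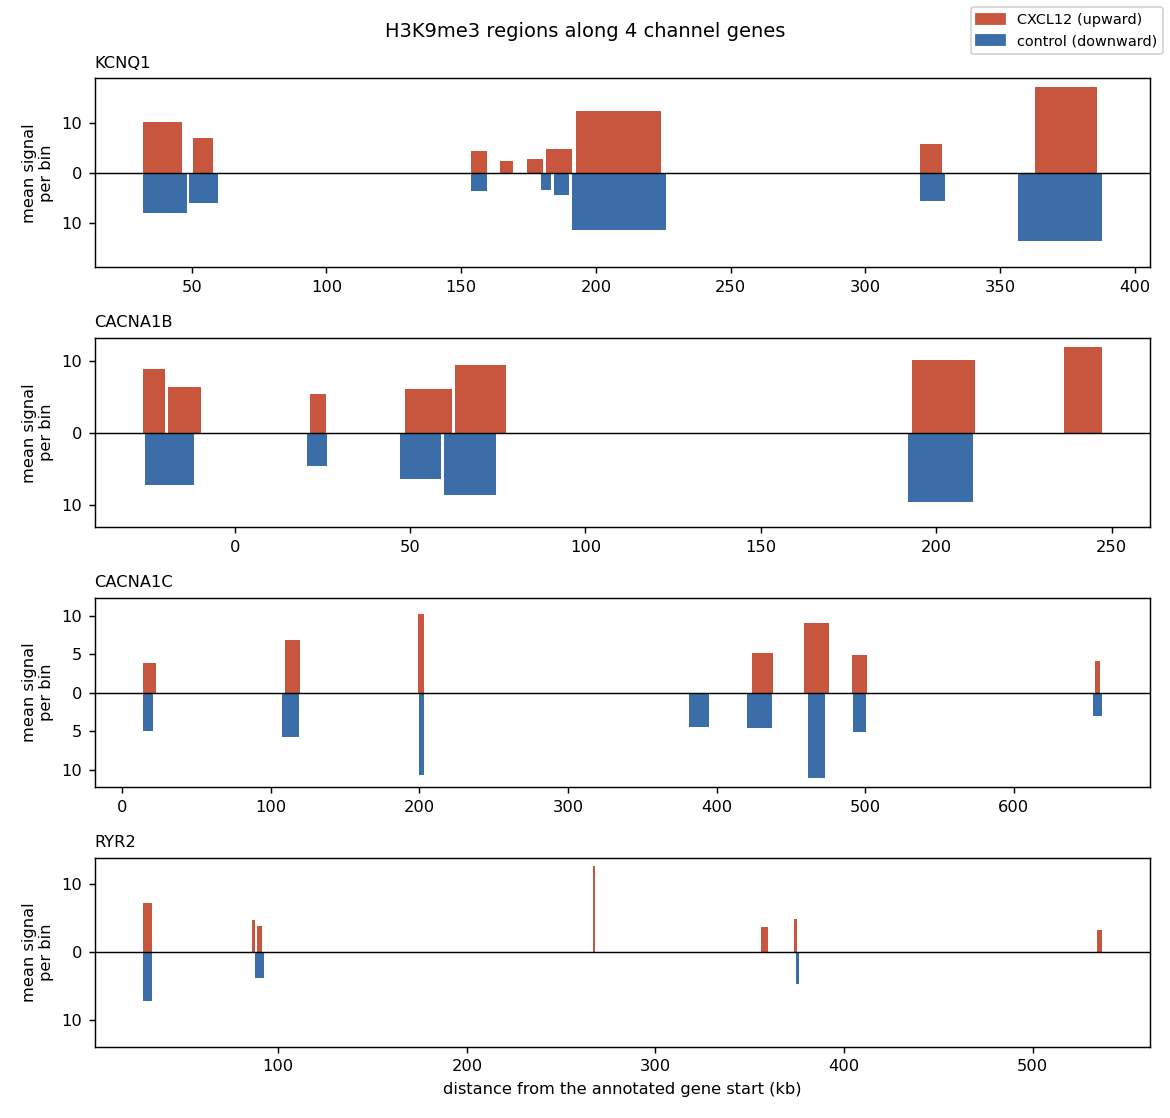
H3K9me3 regions along KCNQ1, CACNA1B, CACNA1C and RYR2 by distance from the annotated gene start (kb). Bar height is the mean signal per bin, upward for CXCL12 and downward for control; bars without a counterpart include the CXCL12 region of 11.9 in CACNA1B, the CXCL12 region of 12.6 in RYR2 and the control region of 4.45 in CACNA1C.

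Auxiliary calcium channel subunits had a region at 8 of 16 genes and 20 loci (12 shared, 3 control only, 5 CXCL12 only), with 6 ratios above 0 and 6 below. CACNA2D4 averaged 11.6 per bin in control and 7.82 after CXCL12 at chr12:1995000-2002999. The neighbouring genes CACNG5, CACNG4 and CACNG1 on chromosome 17 each carried a shared locus. The locus at chr17:65038800-65048199 had 6.24 in control and 5.54 after CXCL12. Its CXCL12 region was listed under both CACNG4 and CACNG1, and its control region under CACNG1 and not CACNG4.

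Sodium channel pore genes had a region at 4 of 10 genes and 9 loci (6 shared, 1 control only, 2 CXCL12 only). By locus the strongest lay downstream of SCN3A, a neuronal channel, with 11.4 in control and 10.5 after CXCL12 at chr2:165930000-165941399. The control value there joins 2 regions, and the region that named SCN3A averaged 6.12 with a highest bin of 19. Among control regions that named a gene of this class the highest mean signal was 7.14, in SCN8A. SCN8A, another neuronal channel, had 3 shared loci with 5.05 to 7.14 in control and 5.88 to 6.18 after CXCL12. SCN10A and SCN11A, the channels of pain-sensing neurons, carried 1 shared locus each.

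Ryanodine receptors, the calcium release channels of the endoplasmic reticulum, had a region at all 3 genes. Of their 10 loci 4 were shared and 6 were called after CXCL12 only. RYR1, known best from skeletal muscle, had 1 locus with 17.2 in control and 14.2 after CXCL12 at chr19:39023400-39028799. The 3 shared RYR2 loci had 7.17, 3.82 and 4.70 in control and 7.18, 3.88 and 4.88 after CXCL12. The 6 CXCL12-only loci lay in RYR2 and RYR3, and 5 of them had mean signals of 3.22 to 4.80, below the library median of 5.10. The RYR2 locus at chr1:237291600-237293399 lay only 0.2 kb from a control region, and the others lay 15.2 to 330.8 kb from one.

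TRPM genes, with a region at 6 of 8, gave 15 loci (12 shared, 1 control only, 2 CXCL12 only), with a median of −0.08, 4 above 0 and 8 below. TRPM2, a calcium-permeable channel gated by ADP-ribose, had the strongest, 13.1 in control and 12.4 after CXCL12 over 12600 bp in each library at chr21:45794400-45806999. In the TRPC family 3 of 6 genes had a region, with a shared locus in TRPC4 (4.83 and 6.53) and CXCL12-only loci in TRPC5 (2.90) and TRPC7 (2.73). In the TRPV family it was 2 of 6, downstream of TRPV5 in both libraries (5.23 and 4.33) and downstream of TRPV4 after CXCL12 only (4.87). The pacemaker channel genes HCN2 (6.56 and 6.81) and HCN4 (5.48 and 5.41) each had a shared locus, of 4 HCN genes. TRPC4AP had 4.15 and 5.00.

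Signal at the 121 shared loci was close to equal in the libraries. The log2 ratio had a median of 0.006 (interval −0.048 to 0.052) and an SD of 0.26, its middle 50% ran from −0.14 to 0.16, and the median over all shared loci was 0.04. It was above 0 at 66 loci (54.5%, against 57.0% of all shared loci) and below 0 at 55. At least 2-fold higher mean signal after CXCL12 was found at 0 channel loci, where 0.116% of all shared loci were called, and at least 2-fold lower at 1, where 0.176% were called. By a 1.5-fold rule the counts were 0 higher (2.27% of all shared loci) and 2 lower (1.92%). With so few loci past either rule, the counts do not set the channel loci apart from the rest.

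**Figure D3:**
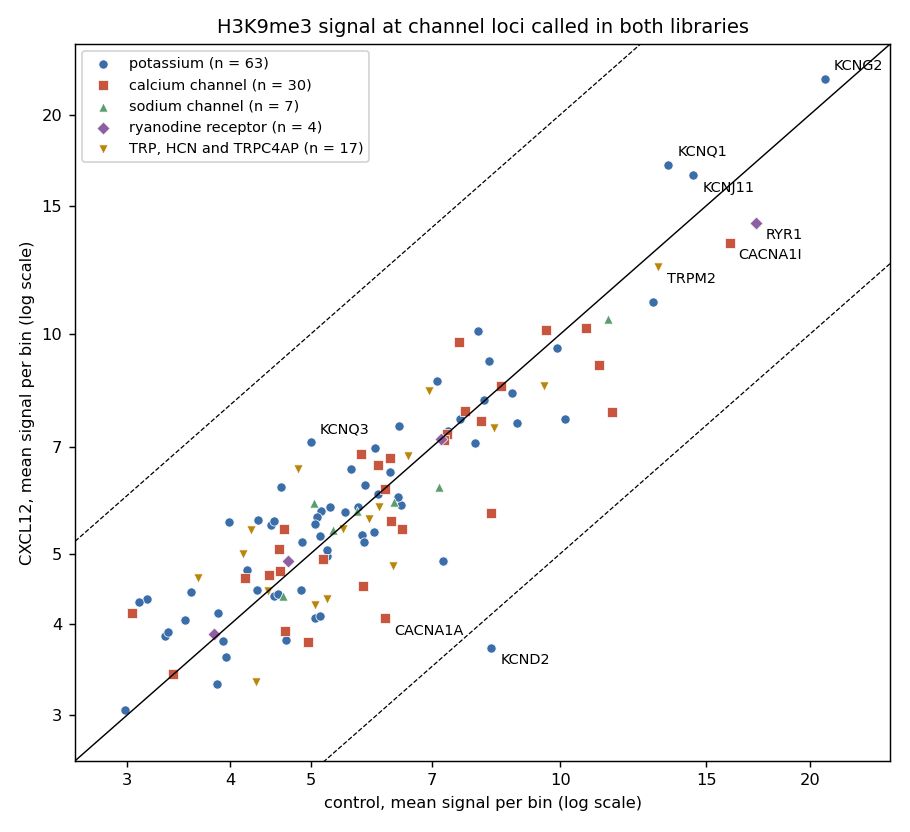
Mean H3K9me3 signal per bin in control (x axis) and after CXCL12 (y axis) at the 121 channel loci called in both libraries, both axes logarithmic, with a symbol for each channel family. The solid line marks equal signal and the dashed lines 2-fold differences; KCND2 (8.26 and 3.71) is the point beyond a dashed line.

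The locus past the 2-fold rule lay in KCND2, which encodes a pore subunit of the fast transient potassium current. At chr7:120095200-120098199 it averaged 8.26 per bin in control and 3.71 after CXCL12 (log2 ratio −1.15), with highest bins of 18 and 13. The called region measured 1000 bp without and 3000 bp with CXCL12, and the summed signal was higher after CXCL12 (log2 ratio 0.45), so the direction depends on the measure. CACNA1A followed with 6.15 and 4.08 (−0.59, chr19:13558600-13566399), then CACNA2D4 (−0.56), KCNS3 with 7.22 and 4.89 (−0.56), CACNA1E with 8.26 and 5.68 (−0.54) and KCNC2 with 10.1 and 7.65 (−0.41). Summed signal was higher after CXCL12 at CACNA1A, CACNA2D4, KCNS3 and CACNA1E too (log2 ratios of 0.12 to 0.67). At all 6 of these loci the called region was longer after CXCL12, and at CACNA1A, CACNA2D4 and KCNC2 the highest bin was higher after CXCL12. Among the 6 largest ratios, at KCNQ3, KCNH1, KCNMB2, KCNMA1, CACNA1C (3.05 and 4.14) and TRPC4, the called region was shorter after CXCL12 at 4, of equal length at KCNMB2 and longer at KCNMA1. The part of called length in these ratios was not tested.

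**Figure D4:**
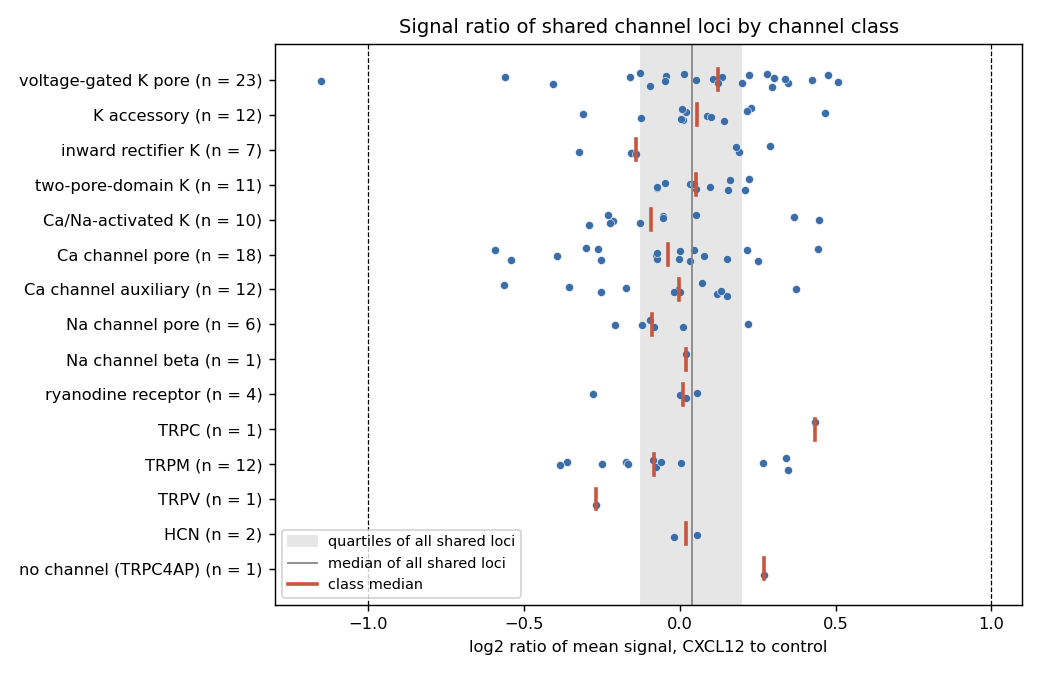
Log2 ratio of mean signal, CXCL12 to control, at each shared channel locus (points) by channel class, with the class median (red bar). The grey band and line are the quartiles and the median (0.04) of all shared loci and the dashed lines mark 2-fold differences; the class medians with more than 1 locus ran from −0.14 for inward rectifiers to 0.12 for voltage-gated potassium pores.

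More DNA of the channel genes was called after CXCL12. Channel regions covered 919.0 kb in control and 1089.6 kb after CXCL12, a ratio of 1.19, against 1.07 over all regions. The mean signal over all their bins was 7.16 and 7.01. Channel regions were longer than the rest, with medians of 4800 and 5400 bp against 4000 and 4200 bp over all regions, and their median mean signal was 5.29 in both libraries. At shared loci the called length was greater after CXCL12 at 76 (62.8%, against 55.0% of all shared loci), smaller at 37 and equal at 8. Depth, which is unknown, can also lengthen called regions, and its part was not tested.

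The loci called in a single library were weaker than the shared loci, among channel genes as over all loci. Control-only channel loci had a median mean signal of 4.37 and CXCL12-only loci 4.01, against 5.70 and 5.57 at shared channel loci. At or above the median of their library lay 4 of 18 (22.2%) and 5 of 37 (13.5%), against 20.9% and 16.2% of all loci of a single library. The 5 after CXCL12 were RYR2 (12.6 over 800 bp, chr1:237472800-237473599), CACNA1B (11.9 over 11000 bp, chr9:141008600-141019599), TRPM4 (6.06), CACNA2D3 (5.32) and TRPM2 (5.12). The strongest in control were CACNA1D (6.31 over 400 bp), KCNMB3 (5.98), KCNIP1 (5.52), SCN3A (5.26) and KCNJ6 (5.00). The CACNA1D locus was 2.00 kb and the TRPM4 locus 2.40 kb from a region of the other library, whereas the KCNMB3 locus was 151.8 kb from one. Over the channel loci the median distance was 29.4 kb for control-only and 44.2 kb for CXCL12-only loci, against 16.9 and 14.8 kb over all loci.

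Most channel genes had at least 1 shared locus, 62 of 71 symbols. KCNAB1, a cytoplasmic beta subunit, and KCNMB3, a subunit of the large-conductance channel, had loci in control only (2 of 71, where 7.02% of all symbols were listed in control only). CACNG2, KCNH8, KCNK15, RYR3, TRPC5, TRPC7 and TRPV4 had loci after CXCL12 only (7 of 71, where 7.39% of all symbols were). None of the regions of these 7 genes reached the library median signal.

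The start of a channel gene lay outside the regions about as often as that of other listed genes. It could be placed in hg19 from the deposited distances for 66 channel genes, and at 58 (87.9%) it lay in no region of either library, against 84.9% of 7078 listed genes. It lay inside regions of both libraries at 5 (CACNG1, CACNG5, KCNC2, KCNG2 and KCNK10; 7.58%, against 11.4% of listed genes). At 3 it lay inside a region after CXCL12 only (4.55%), where 1.88% of listed genes were called. At 0 it lay inside a region of control only, where 1.88% were called, and 0 of 66 allows a share of up to 4.55%, taken as 3 counts of the total.

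At each of these 3 genes a control region ended short of the start. At CACNA2D3 the CXCL12 region chr3:54147000-54156999 reached over the start, and the control library had a pair of regions there, the nearer ending 694 bp before it. At SCN3B, a beta subunit of sodium channels, the control region ended 4285 bp before the start. At KCNK18 the upstream control region ended 7.401 kb before the start, and another control region began 7.4 kb past it. Averaged over bins, these loci had 5.78 in control and 4.52 after CXCL12 at CACNA2D3, 5.32 and 5.39 at SCN3B and 3.92 and 3.79 at KCNK18. Summed over bins, which depends on called length, the signal was higher after CXCL12 at all 3, with log2 ratios of 0.16, 0.74 and 1.22. The windows of CACNA2D3 and KCNK18 printed above hold 37 and 10 CG. At KCNC2 and KCNG2, whose RefSeq windows hold 4 and 35, the annotated hg19 start was covered in both libraries, with 10.1 and 7.65 at KCNC2. Whether a window lies at the covered start was not checked, for KCNG2 or the others. The CG counts therefore cannot be assigned to the covered starts.

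**Figure D5:**
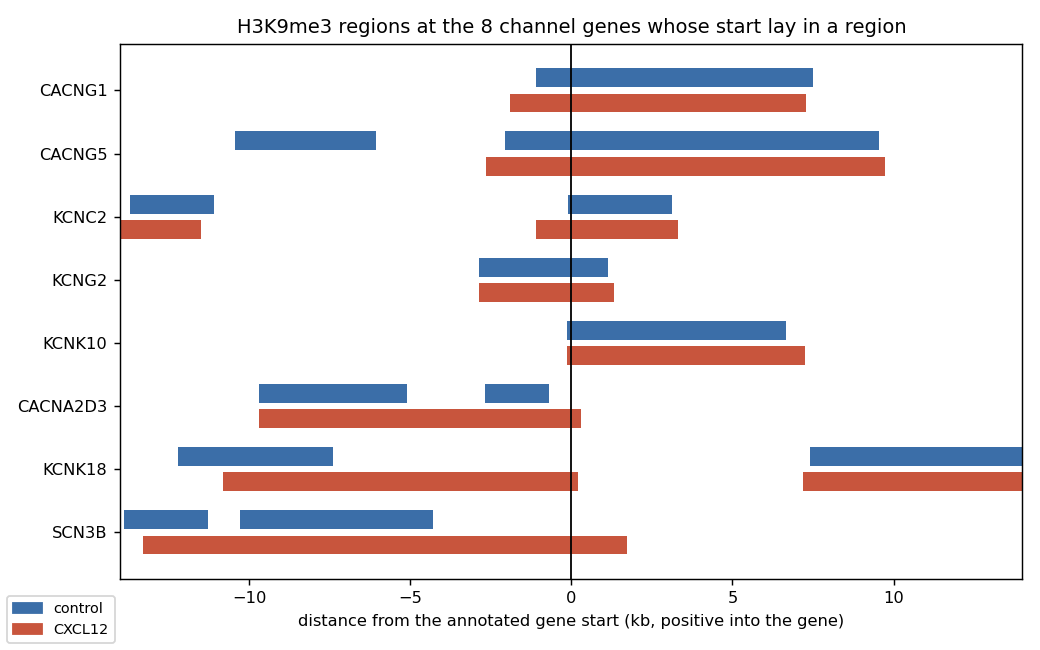
H3K9me3 regions of control (blue) and CXCL12 (red) within 14 kb of the annotated start of the 8 channel genes whose start lay in a region, by distance from the start (kb, positive into the gene). The start was covered in both libraries in the upper 5 genes and after CXCL12 only in CACNA2D3, KCNK18 and SCN3B. In these, upstream control regions ended 0.694, 7.401 and 4.285 kb before the start.

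A promoter was also annotated in the deposited table at regions that stopped short of the start. For example, the promoter count was 1 for the control region ending 7.44 kb before TRPM8, a cold receptor, and 0 for the CXCL12 region ending 8.44 kb before it. The promoter annotation thus depended on where a region ended and does not show that the start was covered. At KCNIP3 regions of both libraries ended 3.07 and 3.27 kb before the start, and at KCNMB3 the control-only region lay 2.24 kb from it. The promoters annotated at the TRPC5, TRPV4 and CACNA1B loci lie where LOC100506619, MGC14436 and LOC100133077 are also listed, and cannot be assigned to the channel genes.

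Of the channel genes known from T lymphocytes that were looked up, 9 had a region. No region was listed for KCNA3 and KCNN4, the main potassium channels of T cells, nor for TRPM7, TRPV2 and CACNA1F. The 9 genes gave 20 loci, 13 shared, 2 control only and 5 CXCL12 only. The shared loci had a median log2 ratio of −0.05 (range −0.28 to 0.27), 6 above 0 and 7 below, and 0 were 2-fold apart. RYR1 and TRPM2 had the highest signals, as given above. TRPM4, a sodium-conducting channel opened by calcium, had 9.57 in control and 8.49 after CXCL12 at a shared locus, and 6.06 at one called after CXCL12 only. KCNK5 had 8.21 and 9.18 downstream of the gene. CACNA1D had 8.48 and 8.49 at one shared locus and 4.59 and 4.74 at the other, KCNK18 had 5.13 and 5.29 within and beyond the gene, and CACNB4 3.42 in each library. KCNN2 had 3.85 and 3.32 at a shared locus and 2.81 at one called in control only. RYR3 had CXCL12-only loci with 3.68 and 3.49.

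Other genes of calcium entry, calcium stores and related channels, which the name rule leaves out, were looked up beside them. Of 29 genes looked up, 28 were found in the RefSeq list used and ORAI1 was not. No locus was listed for ORAI1, ORAI2 or ORAI3. Of the 28 genes found, 12 had a region and 16 had none, where 42.4% of the channel genes and 30.0% of all protein-coding genes had one. Their 26 loci were 20 shared, 2 control only and 4 CXCL12 only, and the shared loci had a median log2 ratio of 0.04 (range −0.43 to 0.53) with 12 above 0, 8 below and 0 that were 2-fold apart. ITPR2, an inositol trisphosphate receptor and so a calcium release channel like the ryanodine receptors, had 6 loci, 5 of them shared, reaching 13.2 per bin in control and 12.3 after CXCL12. STIM1, the calcium sensor of the endoplasmic reticulum, had 1 shared and 1 CXCL12-only locus. ATP2A3, a calcium pump of the endoplasmic reticulum, had 9.13 and 8.70 at its shared locus.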

How the data were processed

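H3K9me3 was measured by chromatin immunoprecipitation and sequencing. Per the submitters' processing notes, BWA 0.7.12 (an aligner), SICER 1.1 (a caller of broad regions) and hg19 were used. Their settings were not stated. Per the file headers, each deposited region has 2 signal values of the authors, its average bin and its highest bin. Mean times bins was whole within 0.000491%, bins measured 32.9 bp at the median, and lengths were multiples of 200 bp. Scaling between libraries, input correction and depth were not stated in the sources used here, so signals carry no interval. The base from which coordinates count is likewise unstated, and lengths include both ends.

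Regions sharing at least 1 bp were chained into loci. The log2 ratio of mean signal over all bins of a locus, with no pseudocount, exists for shared loci only. Shares have exact (Clopper-Pearson) 95% intervals and medians order-statistic 95% intervals, which cover the spread over loci or genes in these libraries. Gene starts were recovered from the deposited summit and distance. Strand came from those distances where they fixed it, otherwise from RefSeq, and for 3766 genes with both it was the same in 99.8%. All 71 symbols matched RefSeq (GRCh38.p14), which gave names, strands, gene counts and promoter windows, but no hg19 position. Classes follow the gene symbols.

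Loci were named by rule: the 6 strongest shared, the 6 largest and 6 smallest ratios, every 2-fold locus, the 5 strongest of each single library, the 6 longest, the strongest of each class, the 6 genes with most loci, loci with a promoter and the T cell list, of which a part is not reported here. Others named were chosen after their values were seen. The members and lists were chosen with earlier results of these data known. Scripts, run in Python 3.11.15 with pandas 2.3.3 and SciPy 1.17.1, were tested on simulated regions. Alternatives covered the overlap, the measure of signal, the fold rule, weak loci and the position of a region.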

Additional observations from a re-analysis of the deposited data

How the results depend on the processing

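The share of channel loci called in both libraries, 68.75% in the report, was 60.2% when regions had to overlap by 50% of the longer one, 88.3% at loci at or above the median signal and 82.6% when loci were weighted by length. The median log2 ratio was 0.115 by summed signal, which follows the called length, and between −0.035 and 0.039 under the other alternatives. The median by summed signal was also 0.115 over all shared loci. By summed signal 6 channel loci were at least 2-fold higher after CXCL12 (in KCNMA1, KCNK13, KCNK18, TRPV5, KCNMB2 and TRPM6) and 0 were lower. The share of all shared loci past this rule by summed signal was not computed, so these counts do not set the channel loci apart. The count of 2-fold lower loci was 0 with a pseudocount of 1 and 2 by the 1.5-fold rule. The KCND2 log2 ratio was 0.45 by summed signal, opposite in sign to the mean. The ratio of covered length was 1.13 for regions at or above the median signal. Of 47 named shared loci, 17 moved by more than the SD over loci by the highest bin and 21 by summed signal, besides KCND2. Leaving out TRPC4AP, an alternative chosen after seeing the data, gave a shared share of 68.6% and a covered length ratio of 1.19. The signs of the mean and the highest bin were opposite at 45 of 121 shared channel loci, and those of the mean and the summed signal at 59. Opposite signs were not counted over all shared loci, so these counts describe the measures and nothing particular to channel genes. No paired analysis was possible because each group holds 1 library. Depth is unknown, so no detection limit can be given for the weak loci called in a single library.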
